A study of Danio rerio with 6 samples.

Results

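The microRNAs (miRNAs) miR-462 and miR-731 are encoded side by side in the zebrafish genome and belong to a gene cluster found in teleost fish. They were taken by probe name (dre-miR-462 and dre-miR-731), and they are 2 of the 218 zebrafish miRNA probes on the array. Small RNA was measured in 3 samples of regenerating hearts, collected 6 hours after a piece was cut away with scissors under anaesthesia, and in 3 samples of uninjured hearts (0 hours). All 6 samples came from adult fish of the Ekkwill strain, each sample was a pool of hearts, and the series calls the replicates biological. The sources used here do not give the number of hearts in a pool or whether the uninjured fish were anaesthetised. Replicates 1 and 2 of the regenerating group and replicates 1 and 3 of the uninjured group carried the dye Cy3, and regenerating replicate 3 and uninjured replicate 2 carried Cy5.

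A miRNA guides the silencing machinery to messenger RNAs that pair with its seed, the short stretch near its 5′ end, and lowers the output of those messages. miR-462 and miR-731 are known from fish infected with viruses and from interferon-treated fish cells, where their levels rise, and a zebrafish study placed the cluster under the hypoxia-inducible factor. In sequence they are relatives of the mammalian miR-191 and miR-425, which lie together within the gene DALRD3. In the RefSeq annotation of the GRCz12tu assembly no gene is listed between dre-mir-462 and dre-mir-731, and their neighbours are impdh2, which codes for an enzyme of guanine nucleotide synthesis, and dalrd3. The question here was how the 2 miRNAs read in the first hours after heart injury and whether they moved together. Interferon, its target messages and oxygen were not measured in these samples.

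The target sequences of the 2 probes, as deposited with the array values, are shown 5′ to 3′ with the seed (bases 2 to 8) in capitals, because the seeds show how the members of the cluster differ.
miR-462: uAACGGAAcccauaaugcagcu
miR-731: aAUGACACguuuucucccggaucg
The seeds differ, so the 2 miRNAs are not copies of each other, and none of the other 217 probes on the array had either seed. miR-462 is 22 bases long with 45.5% G and C, and miR-731 is 24 bases long with 50% G and C, where the median of the tested probes was 45.5%. The 2 targets stand at an edit distance of 15. The nearest target of any other probe lay 9 edits away from miR-462 and 10 edits away from miR-731, so neither had a near copy on the array.

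Each array held 3968 spots, 12 of them for each miRNA, and a detected probe was one whose mean, less the background, was above 3 standard deviations (SDs) of the empty spots on that array. Regenerating replicate 1 stood apart: 217 of 218 probes counted as detected there, against 110 to 144 in the other 5 samples. The ratio of mean miRNA intensity to 8 added calibration probes was 4.77, 1.78 and 1.49 in regenerating replicates 1, 2 and 3, against 4.70, 6.63 and 4.29 in uninjured replicates 1, 2 and 3. In this measure regenerating replicate 1 lay with the uninjured samples. Over the 1060 empty spots, the residual intensity had a Spearman rho of 0.46 between regenerating replicate 1 and uninjured replicate 2, and at 0.23 at most in any other pair of samples. The labels do not say which samples were on one array. The log2 changes and the joint behaviour of miR-462 and miR-731 are therefore given with and without regenerating replicate 1. Partner ranks, lists and markers are given with it only. All 4 heart muscle markers, miR-1, miR-133a, miR-133b and miR-499, were detected in 6 of 6 samples. In pooled hearts fewer cells of a type and less RNA per cell cannot be told apart.

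miR-462 was detected in all 6 samples. Its mean background-subtracted intensity over 12 spots was 1548, 445 and 236 in regenerating replicates 1, 2 and 3, against 1240.4, 1579.7 and 1477 in uninjured replicates 1, 2 and 3. Regenerating replicates 2 and 3 were dim, and regenerating replicate 1 was as bright as the uninjured samples. These intensities carry no scaling between arrays. The spots of one array agreed closely, with a coefficient of variation of 5.49% to 12.1%, which is technical spread. The signal was 3.13 to 147 times the detection limit of its array, lowest in regenerating replicate 2.

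miR-731 was detected in 2 of 3 regenerating samples and in 3 of 3 uninjured ones. Its mean background-subtracted intensity was 197, 134 and 27.9 in regenerating replicates 1, 2 and 3, against 94.3, 143 and 216 in uninjured replicates 1, 2 and 3. The groups overlapped on this scale, and the value of regenerating replicate 3 lay below all others. In regenerating replicate 2, where the empty spots were noisiest, the signal was 0.946 times the detection limit, and in regenerating replicate 3 it was 1.62 times that limit. The coefficient of variation between spots was 25.5% and 22.8% in these 2 samples and between 4.34% and 12.0% in the other 4. The measurement of miR-731 was thus least precise in the samples that carry the group difference.

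**Figure D1:**
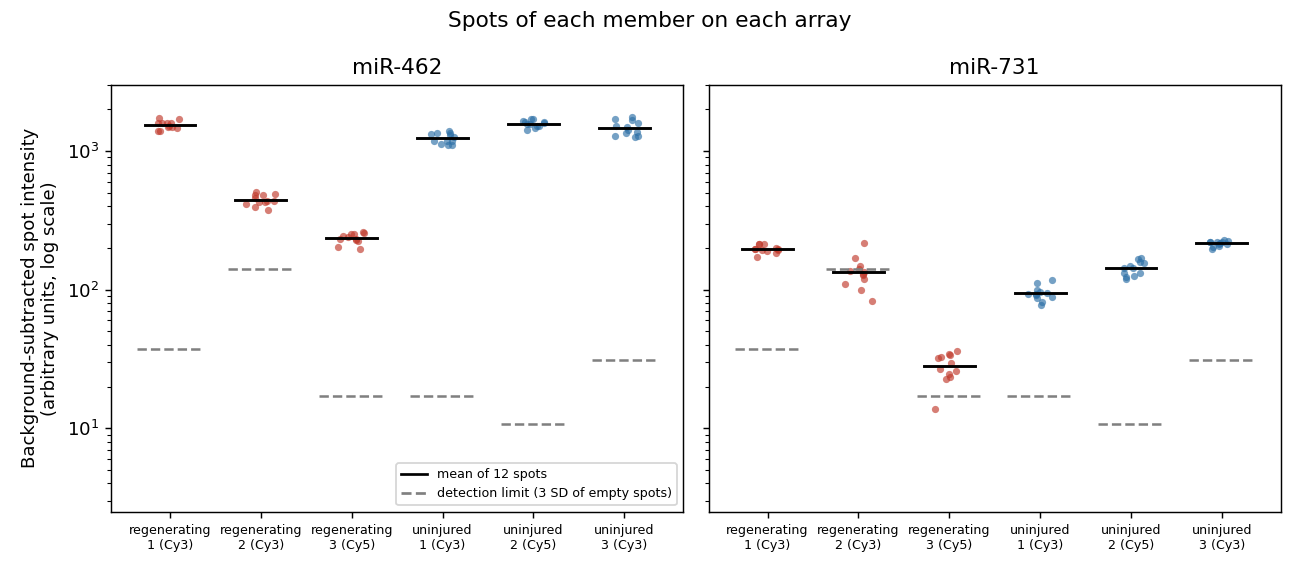
Background-subtracted intensity of every spot (arbitrary units, log scale) of miR-462 and miR-731 on each array, with regenerating samples in red and uninjured samples in blue; black lines are means of 12 spots and dashed lines the detection limit. miR-462 lay above its limit in every sample, while the mean of miR-731 was 134 in regenerating replicate 2, under a limit of 142.

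After quantile normalization miR-462 stood at a log2 intensity of 10.15, 8.99 and 9.02 in regenerating replicates 1, 2 and 3, against 10.20, 10.34 and 10.15 in uninjured replicates 1, 2 and 3. Regenerating replicates 2 and 3 lay more than 1 log2 unit under the uninjured samples, and regenerating replicate 1 had the same value as uninjured replicate 3, because in both 142 of 218 probes were dimmer. The regenerating mean was 9.39 ± 0.66 and the uninjured mean 10.23 ± 0.098 (SD, n = 3 each), so most of the spread lay among the regenerating samples. The log2 change, regenerating minus uninjured, was -0.85 (SE 0.34, 95% interval -1.68 to -0.013), and it did not pass in limma (adjusted p = 0.244, unadjusted p = 0.0475). An exact two-sided permutation test of the same values gave p = 0.2, where 3 samples against 3 can give 0.1 at the least.

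miR-731 stood at a normalized log2 intensity of 7.69, 7.32 and 7.16 in regenerating replicates 1, 2 and 3, against 7.64, 8.02 and 8.02 in uninjured replicates 1, 2 and 3. The groups overlapped only through regenerating replicate 1, which lay just above uninjured replicate 1. The means were 7.39 ± 0.27 in regenerating hearts and 7.89 ± 0.22 in uninjured hearts (SD, n = 3 each). The log2 change was -0.50 (SE 0.20, 95% interval -1.002 to -0.0016), which did not pass in limma (adjusted p = 0.244, unadjusted p = 0.0495) and had p = 0.2 in the exact permutation test. The offset of 50 added in the background correction pulls changes of dim probes towards 0, and with an offset of 10 the change of miR-731 was -0.62.

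Over the 138 tested probes 5 passed in limma (3.62%), 3 of them lower in the regenerating samples (2.17%); neither miR-462 nor miR-731 was among them. Both had an unadjusted p below 0.05, as had 20.3% of all tested probes. Neither had groups that did not overlap, where 23.9% of tested probes did. The median log2 change of all tested probes was -0.052, so the 2 miRNAs stood 0.79 and 0.45 log2 units below it.

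**Figure D2:**
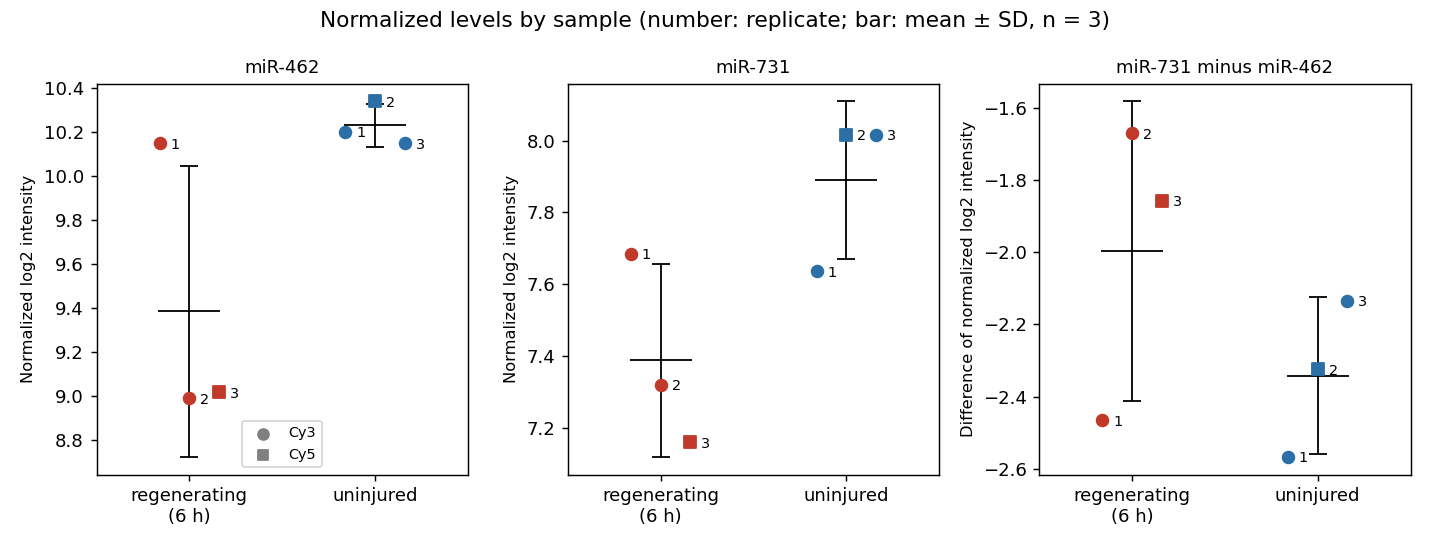
Normalized log2 intensity of miR-462 and of miR-731, and their difference, in each regenerating and uninjured sample, numbered by replicate, with the mean and SD (n = 3 each). Regenerating replicate 1 lies within 0.06 log2 units of an uninjured sample for each miRNA, and regenerating replicates 2 and 3 lie below all uninjured samples.

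Without regenerating replicate 1 miR-462 fell by 1.18 on the log2 scale (SE 0.12, 95% interval -1.48 to -0.88) and passed in limma (adjusted p = 0.0112). miR-731 stood at -0.67 (95% interval -1.12 to -0.21) and did not pass (limma adjusted p = 0.0519). With the dye left out of this fit as well, miR-462 fell by 1.17 (limma adjusted p = 0.00356) and miR-731 fell by 0.66 (limma adjusted p = 0.0332). Both fits hold only 2 regenerating samples, those with the lowest ratios of miRNA to calibration intensity. The ratios were 1.78 and 1.49, against 4.29 to 6.63 in the uninjured samples. Group and signal of the array cannot be told apart in these fits. The calls also stand among many: without regenerating replicate 1 21% of the 138 probes passed, and 12.3% passed as lower. Leaving out any other single sample gave no call of either miRNA, with or without the dye term.

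Within each dye the direction was the same. Among the Cy3 samples (2 against 2) miR-462 averaged 9.57 in regenerating and 10.18 in uninjured hearts, and in the single Cy5 pair it was 9.02 in the regenerating and 10.34 in the uninjured sample. For miR-731 the Cy3 means were 7.50 in regenerating and 7.83 in uninjured hearts, and the Cy5 values 7.16 in the regenerating and 8.02 in the uninjured sample. The differences were -0.61 (Cy3) and -1.32 (Cy5) for miR-462 and -0.32 (Cy3) and -0.86 (Cy5) for miR-731. The Cy3 differences are the smaller ones and hold regenerating replicate 1. With the Cy3 samples alone neither passed (limma adjusted p = 0.747 and 0.712).

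The values processed by the authors had the same 2 samples at the low end. In that table miR-462 read 932, 463 and 336 in regenerating replicates 1, 2 and 3, against 871, 996 and 813 in uninjured replicates 1, 2 and 3. miR-731 read 123, 72.2 and 69.1 in regenerating replicates 1, 2 and 3, against 109, 179.7 and 145 in uninjured replicates 1, 2 and 3. Regenerating replicates 2 and 3 were again the lowest for each miRNA. The log2 changes from this table were -0.76 for miR-462 and -0.73 for miR-731, and neither passed (limma adjusted p = 0.338 and 0.318).

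The direction of miR-462 held under every setting tried, though settings of the probe filter, the test or the terms of the fit left its change as it was. The direction of miR-731 turned with the scaling. With each array scaled to its 75th percentile, miR-462 stood at -0.72 and miR-731 at 0.38, where the median of all tested probes was 0.13. Less that median they stood at -0.85 and 0.25, and these 2 values are the same by construction under the other scalings that shift an array by 1 factor. Beside this stand the values before normalization. Relative to the median of the tested probes of its array, miR-731 was at -2.93, -1.93 and -3.10 log2 units in regenerating replicates 1, 2 and 3, against -3.59, -3.50 and -2.98 in uninjured replicates 1, 2 and 3. It was highest in regenerating replicate 2, the sample in which it was under the detection limit. With plain background subtraction and the 75th percentile, a combination chosen after the data were examined, miR-731 stood at -0.24 and miR-462 at -0.95, and neither passed. miR-462 relative to the same median was at -0.42, -0.91 and -1.44 in regenerating replicates 1, 2 and 3, against -0.53, -0.47 and -0.60 in uninjured replicates 1, 2 and 3.

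miR-462 also passed with median scaling over all miRNA probes (-1.64, limma adjusted p = 0.0473) and with scaling to the calibration spots (-1.77, limma adjusted p = 0.0415). In these fits the median of all tested probes was -0.79 and -0.91, so both changes again equal -0.85 less that median. miR-731 passed in neither. Each sample was also corrected for the trend of its deviations from the probe means with the G and C content of the targets. This left miR-462 at -0.84 and miR-731 at -0.65 (limma adjusted p = 0.196 and 0.163).

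**Figure D3:**
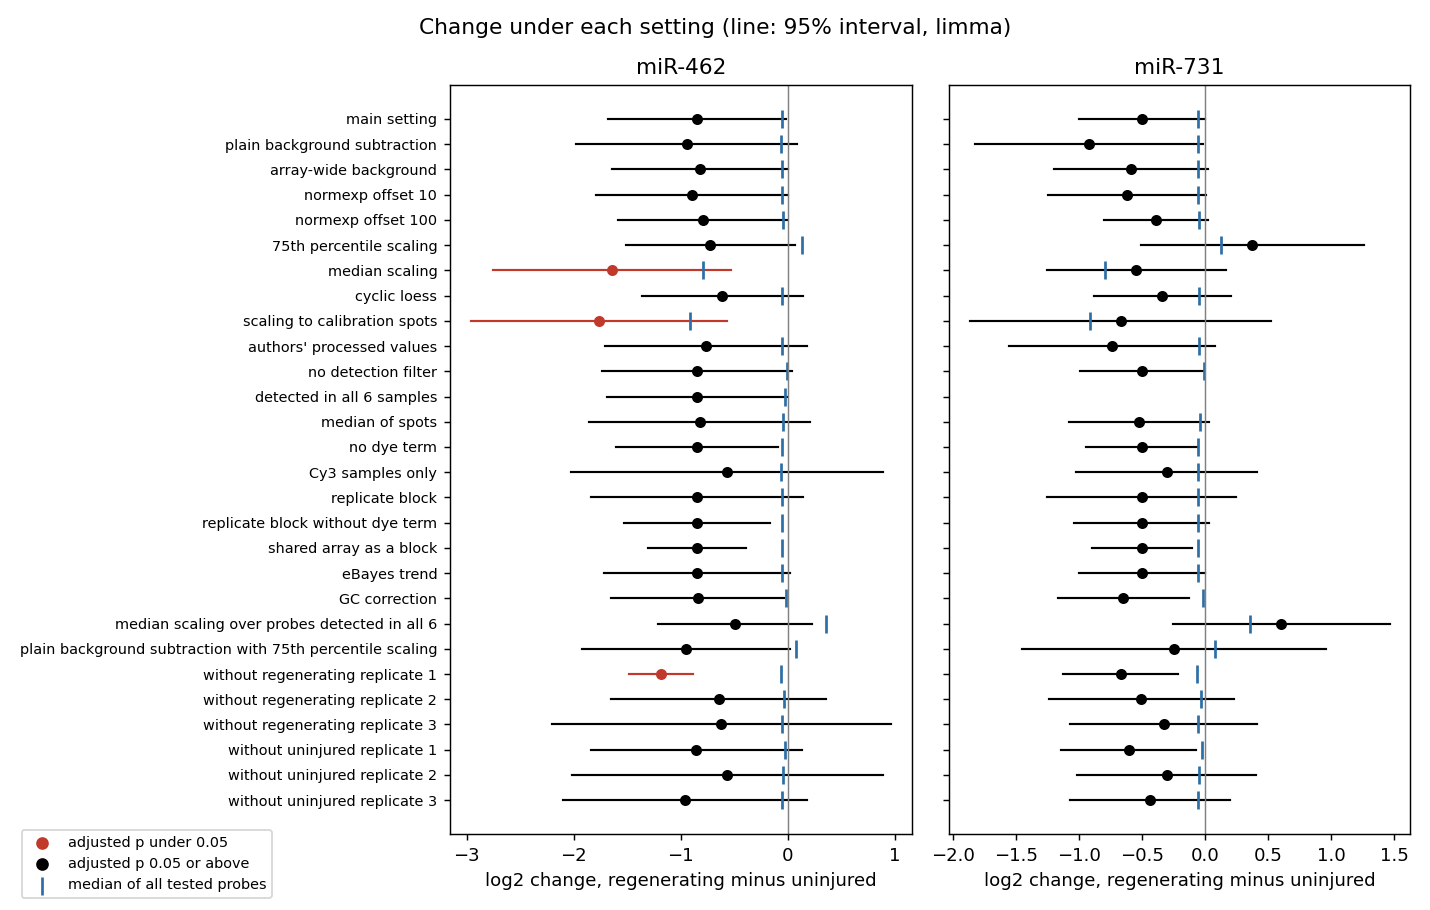
Log2 change, regenerating minus uninjured, of miR-462 and miR-731 under the setting reported here and the alternatives, with 95% intervals from limma. Fits that left out both 1 sample and the dye term, and the permutation test, are not drawn. Among them is the fit without regenerating replicate 1 and the dye term, the only alternative in which miR-731 passed. Red marks an adjusted p under 0.05 and the blue tick is the median of all tested probes in that fit. All values of miR-462 lie below 0, while miR-731 lies at 0.38 and 0.61 under 2 of the scalings.

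The joint behaviour of the pair was read within each array, where a common scale factor cancels but the effect of quantile normalization does not. The normalized log2 value of miR-731 minus that of miR-462 was -2.47, -1.67 and -1.86 in regenerating replicates 1, 2 and 3, against -2.57, -2.32 and -2.13 in uninjured replicates 1, 2 and 3. On this scale the distance between the 2 probes was smaller in regenerating replicates 2 and 3 than in the other 4 samples. The groups overlapped through regenerating replicate 1. As background-subtracted intensity, miR-731 was 12.8%, 30.2% and 11.9% of miR-462 in regenerating replicates 1, 2 and 3. In uninjured replicates 1, 2 and 3 it was 7.61%, 9.05% and 14.6%. The authors' values gave 13.2%, 15.6% and 20.6% in the regenerating replicates and 12.5%, 18.1% and 17.9% in the uninjured ones. The order of the samples thus depended on the scale. The mean difference of the normalized log2 values was -1.997 ± 0.42 in regenerating and -2.34 ± 0.22 in uninjured hearts (SD, n = 3 each). This is a change of 0.34 (exact two-sided permutation p = 0.3, smallest possible 0.1). With the authors' values the same change was 0.027, and with the scalings by 1 factor it was 1.10 (exact permutation p = 0.2). For the log2 ratio of the background-subtracted intensities it was 0.73 (exact permutation p = 0.3). In the normalized values without regenerating replicate 1 it was 0.50 (exact permutation p = 0.1, the smallest possible with 2 samples against 3). Whether the log2 changes of the 2 miRNAs differed, and by how much, was therefore not settled at this precision. Brightness differs between probes for reasons of sequence, so the distance itself is no ratio of amounts.

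Across the 6 samples the normalized values of miR-462 and miR-731 had a Pearson r of 0.89. The values of miR-462 fell into a cluster of 4 samples near 10.2 and 2 samples near 9.0, so this r is given as a measure of likeness with no test. Without regenerating replicate 1 it was 0.91 over 5 samples, and without regenerating replicates 2 and 3 it was 0.42 over 4 samples. With 75th percentile scaling it was 0.24, and with median scaling over the probes detected in all 6 samples, chosen after the data were examined, it was -0.021. With median scaling over all miRNA probes it was 0.88, with scaling to calibration spots 0.86 and with the authors' values 0.90.

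Ranked by Pearson r over the same 6 samples, miR-731 was number 9 of the 137 possible partners of miR-462, and miR-462 was number 3 of the 137 partners of miR-731. The closest partners of miR-462 were miR-218b, which in mammals lies within the SLIT genes (r = 0.95), miR-724 (r = 0.94) and miR-454b (r = 0.94). Those of miR-731 were miR-724 (r = 0.97) and miR-732 (r = 0.94), both described in fish. The r of miR-732 rests on dim readings: it was detected in 4 of 6 samples, with normalized log2 values of 6.68 to 7.03. In this ranking, made on the quantile-normalized values only, miR-724 was thus a closer match to each member than the members were to each other. It read 9.78, 8.89 and 8.89 in regenerating replicates 1, 2 and 3, against 9.95, 10.60 and 10.34 in uninjured replicates 1, 2 and 3, with a log2 change of -1.11 (limma adjusted p = 0.130). The opposite patterns were those of miR-181a (r = -0.98 to miR-462), which tunes signalling in lymphocytes, and miR-100 (r = -0.92 to miR-731). All these probes share arrays and normalization, so likeness over 6 arrays can follow the arrays.

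**Figure D4:**
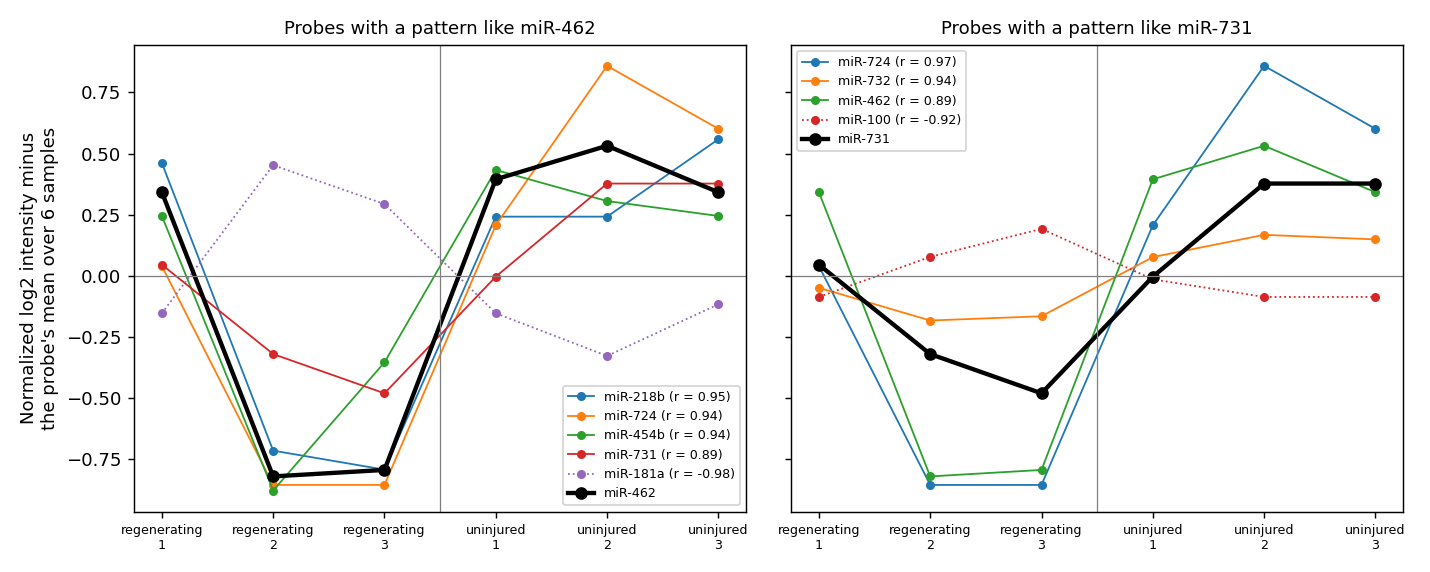
Normalized log2 intensity of each probe less its own mean over the 6 samples, for miR-462 and miR-731 (black), their closest partners by Pearson r and the probe with the most opposite pattern (dotted). Regenerating replicates 2 and 3 are the low points of both members and of the 4 closest partners, at -0.82 and -0.79 for miR-462 and at -0.32 and -0.48 for miR-731.

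Other miRNAs known from interferon, virus and inflammation responses went both ways. Of 11 such probes 9 were detected in at least 3 samples, and 0 of the 9 rose or fell past the threshold (3.62% of all tested probes did so). Their median log2 change was 0.29, beside -0.052 over all tested probes, and 6 lay above 0 and 3 below. Among those above 0 were the relatives miR-181a, miR-181b and miR-181c, at 0.40, 0.65 and 0.62 (limma adjusted p = 0.363, 0.310 and 0.310). The probes of the list are thus not all independent of each other. miR-223, which is abundant in myeloid cells, read 9.48, 9.90 and 10.73 in regenerating replicates 1, 2 and 3, against 8.30, 8.99 and 9.33 in uninjured replicates 1, 2 and 3, with a log2 change of 1.16 (limma adjusted p = 0.131). Its groups did not overlap and regenerating replicate 1 was on the regenerating side. miR-146a, which is induced by NF-κB and dampens innate signalling, read 11.32, 10.90 and 10.15 in regenerating replicates 1, 2 and 3, against 11.52, 11.65 and 11.44 in uninjured replicates 1, 2 and 3 (log2 change -0.74, limma adjusted p = 0.220). As with the pair, regenerating replicates 2 and 3 were the lowest. Unlike in the pair, regenerating replicate 1 also lay below all uninjured samples, so the groups of miR-146a did not overlap. Of all tested probes 23.9% had groups without overlap. miR-155, induced in activated leukocytes, stood at 0.073, but it was detected in only 3 of 6 samples. Its normalized log2 values were dim, at 6.65 to 7.10. Both arms of miR-142a, a miRNA of blood cells, were detected in 1 of 6 samples. That sample was regenerating replicate 1, where 217 of 218 probes counted as detected.

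The hypoxia list, chosen because the cluster has been tied to low oxygen in zebrafish, held 3 tested probes, of which 0 passed (3.62% of all tested probes did). miR-210, the best-known target of the hypoxia-inducible factor among miRNAs, stood at 0.15, its other arm miR-210* at 0.17 and miR-34, a p53 target, at -0.23. The list median was 0.15.

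Markers of heart muscle and of other cells were read beside the pair. Among the 4 heart muscle miRNAs 0 passed, 2 lay above 0 and 2 below, with miR-133a, which restrains division of heart muscle cells, at 0.28 and miR-133b at 0.20 (median 0.075). In the blood and endothelium list 0 of 3 tested probes passed and the median was 0.067. There miR-451, of red blood cells, stood at 0.067, miR-126, of endothelium, at 0.10 and its other arm miR-126* at -0.27, while miR-144 was detected in 2 of 6 samples. Among the leukocyte markers miR-150, of lymphocytes, averaged 12.09 ± 0.024 in regenerating and 12.12 ± 0.18 in uninjured hearts (SD, n = 3 each). The liver marker miR-122 was detected in 4 of 6 samples. Its normalized log2 value was 8.57, 7.06 and 6.81 in regenerating replicates 1, 2 and 3, against 7.11, 7.11 and 6.79 in uninjured replicates 1, 2 and 3. Of the 5 epithelial markers, miR-200b, miR-200c and miR-203b were detected in 6 of 6 samples, miR-200a in 5 and miR-203a in 1. Each of these detection counts takes in regenerating replicate 1, where 217 of 218 probes counted as detected. miR-200b passed as lower in regenerating hearts (log2 change -0.81, limma adjusted p = 0.0352), as did 2.17% of all tested probes. miR-200c (-0.68), miR-200a (-0.42) and miR-203b (0.46) did not pass (limma adjusted p = 0.115, 0.220 and 0.238). The part of changed cell types in the readings of miR-462 and miR-731 was not tested.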

How the data were processed

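Small RNA under 300 nucleotides from 4 µg total RNA was tailed, tagged and stained with Cy3 or Cy5 by a service company, per the labels' protocols. The deposited intensity of each spot is linear, with no background subtracted, per the file headers and the values. The sources used here do not give the scanner, the image software or the method behind the authors' processed intensities. Those processed values correlated with the log2 values computed here at r of 0.973 to 0.985 over 218 probes; their column medians ran from 68.9 to 91.9.

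With limma 3.58.1 (R 4.3.3), spots were background-corrected by normexp (offset 50) against the median of 16 surrounding empty spots, converted to log2, averaged over 12 spots and quantile normalized over 218 miRNA probes. The 138 probes detected in at least 3 samples were fitted with limma (lmFit, eBayes) with group and dye, adjusted by Benjamini-Hochberg over all of them at 0.05. The steps were tested on simulated spots, where samples of a group differed less than the regenerating samples did in miR-462. Members, the 4 lists and the alternatives were chosen with earlier results of these data known. Named probes were the members, their 3 closest partners and the most opposite probe by Pearson r, and, in each list, members past the threshold, the 2 largest changes and set miRNAs. The miR-181 relatives of the interferon and inflammation list were also named. Leukocyte and liver marker probes were read for detection or level, and epithelial ones for detection and change. The leukocyte marker miR-223 was also read for change, as a member of a list. The number of arrays limits the precision.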

Additional observations from a re-analysis of the deposited data

How the results depend on the processing

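miR-462 stayed below 0 in all 34 alternatives (-1.77 to -0.49) and passed in 4 of the 33 with an adjusted p: median scaling (-1.64), scaling to calibration spots (-1.77), and when regenerating replicate 1 was left out, with (-1.18) and without (-1.17) the dye term. Alternatives that changed only the probe filter, test or fit terms left its change at -0.85. They are no separate readings of its direction. miR-731 was below 0 in 31 of 33 alternatives and passed in 1, without regenerating replicate 1 and no dye term (-0.66). Those that changed only filter, test or fit terms left miR-731 at -0.50, again no separate readings. The sign of miR-731 turned with 75th percentile scaling (0.38) and with median scaling over probes detected in all 6 samples (0.61). With 1 sample left out miR-462 ran from -1.18 to -0.56 and miR-731 from -0.67 to -0.30; detection in all 6 samples drops miR-731. The change in their difference was above 0 in all 19 alternatives (0.027 to 1.10). These share samples, and scalings by 1 factor give 1.10 by construction. Their r, a value with no test, ran from -0.021 to 0.93 over 12 alternatives with 6 samples and from 0.83 to 0.94 with 1 left out.

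The 5 probes called became 29 with median scaling (3 higher, 26 lower), 16 with scaling to calibration spots (2 higher, 14 lower), 0 with Cy3 samples only, 9 with regenerating replicate 1 and uninjured replicate 2 joined as a block (a possible shared array, inferred from their empty spots and not from the labels), 3 with an eBayes trend and 3 with GC correction. With 75th percentile scaling there were 5 higher and 0 lower. With 1 sample left out the count ran from 0 to 29, and without the dye term from 3 to 31; it was 29 and 31 without regenerating replicate 1, 0 without regenerating replicate 3 or uninjured replicate 2, 2 without regenerating replicate 2 and 1 without uninjured replicate 1. The cause was not tested. Each 0 came from leaving out Cy5 samples, which leaves the group comparison to 4 Cy3 samples.

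With the replicate number as a block the count was 1, and 9 without the dye term; miR-462 and miR-731 did not pass (limma adjusted p = 0.334 and 0.436). Deviations from the group means correlated at 0.14, -0.45 and 0.37 in same-numbered samples, and from -0.40 to 0.50 in differently numbered ones. With groups of 3 samples this cannot decide whether same-numbered samples were handled together. Signal over background limits miR-731: it was 1.62 times the detection limit in regenerating replicate 3 and under it in regenerating replicate 2. Alternatives combining a setting with no dye term, the block without dye, and median scaling over probes detected in all 6 samples were chosen after the data were examined.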
